A study of Mus musculus with 12 samples.

Results

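The eYFP- macrophages of mouse bone marrow, 3 of the 12 libraries sequenced, were compared with each of the other 3 groups: eYFP+ macrophages, Ly6Chi monocytes and Ly6Clo monocytes, with 3 libraries in each. The libraries were chosen by the group given in their titles, and no measured value was used to choose them. The comparison asks which genes stand in eYFP- macrophages above both the eYFP+ macrophages of the same tissue and the monocytes, which adult stem cells make too. A gene was called when the Benjamini-Hochberg adjusted p of the Wald test of DESeq2 was under 0.05 in all 3 comparisons with the same direction, so the calls below are the choice of these genes and not a further test of them.

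Bone marrow macrophages form the centres of erythroblastic islands, where they hold maturing red cell precursors, supply them with iron and engulf the nuclei that they expel. They also touch blood stem and progenitor cells in their niche. Some of these macrophages descend from embryonic progenitors and others from adult haematopoietic stem cells (HSCs), and a recombinase that is active in the embryonic lineage leaves a fluorescent mark that separates the origins.

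All cells came from female C57BL/6J mice of 8 weeks that carried the Rank cre/+;R26.eYFP fl/+ lineage tracer, in which Cre expressed from the Rank locus turns on yellow fluorescent protein. Macrophages were sorted as F4/80hi CD206+ VCAM1+ cells and then split into eYFP+ cells, taken as of embryonic origin, and eYFP- cells, taken as derived from adult HSCs. Monocytes were split by their surface level of Ly6C. A cell in which Cre did not act is eYFP- too, whatever its origin, and the deposited tables were not used here to measure eYFP itself. Nothing in the labels says whether libraries of a group came from separate mice, so p-values measure the spread between these samples, which may be technical. In bulk RNA, fewer cells of a type and less RNA per cell cannot be told apart.

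The eYFP- libraries held 39423527, 43971175 and 40676678 counts, and the 12 libraries ranged from 26390927 to 48618187. Library profiles within a group correlated at 0.906 to 0.975 across 13130 genes, except that replicate 2 of the Ly6Clo monocytes, the shallowest library with 16434 genes detected, reached 0.793 and 0.801 with its own group. The summed level of erythroid genes was highest in replicate 1 of both macrophage groups. Counts are therefore also given without eYFP+ replicate 1 and Ly6Clo replicate 2, a setting chosen in view of these libraries. That setting is one-sided, because it keeps eYFP- replicate 1, and it favours counts of genes higher in eYFP- macrophages. The genes of the sorting markers F4/80 (Adgre1), CD206 (Mrc1) and VCAM1 (Vcam1) did not pass the test between the macrophage groups (DESeq2 adjusted p = 0.81, 0.61 and 0.98) and all were higher in eYFP- macrophages than in both kinds of monocyte. Of 18 genes listed as markers of bone marrow macrophages, 0 were called against eYFP+ macrophages by DESeq2 or by edgeR, where 1 had an unadjusted p under 0.05 with each tool, and 17 were higher than in each kind of monocyte (16.3% and 15.4% of all genes were). Their summed level was 63160 to 65275 TPM (counts scaled for gene length and library size) in eYFP- libraries and 76362 to 82418 in eYFP+ libraries, against 620 to 3513 in monocytes.

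Against eYFP+ macrophages, 406 of 21567 tested genes (1.88%) were higher in eYFP- macrophages and 33 (0.153%) were lower. This split moved with single libraries, to 347 higher and 182 lower without eYFP- replicate 2 and to 759 and 106 without Ly6Clo replicate 2. Differences to monocytes were far more numerous. Against Ly6Chi monocytes 3377 of 20749 tested genes (16.3%) were higher and 2304 (11.1%) lower, and against Ly6Clo monocytes 3329 of 21567 (15.4%) were higher and 2336 (10.8%) lower. The median log2 difference of all tested genes was -0.05, 0.08 and 0.05 in the 3 comparisons. Higher than all 3 groups were 107 of the 20749 genes tested throughout (0.516%), and 12 (0.0578%) were lower than all 3. The comparisons share the eYFP- libraries, so they are not independent of each other. The 107 genes were 26.4% of the genes higher than in eYFP+ macrophages, and about 3.2% of those higher than in either kind of monocyte.

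These 107 genes differed widely in level and in distance to the next group. Their mean in eYFP- macrophages ran from 0.274 TPM (Nrcam, an adhesion molecule) to 1074 TPM (Car2, a carbonic anhydrase of red cells), with a median of 11.4. The next highest group was the eYFP+ macrophages for 46 genes (counting D630039A03Rik, at 0 in all 3 other groups), the Ly6Chi monocytes for 34 and the Ly6Clo monocytes for 27. The ratio of the eYFP- mean to the mean of the next group had a median of 4.08, was at least 2 for 103 genes and at least 8 for 23. It was lowest for Ran, the small GTPase of nuclear transport, at 1.40. In 101 of the 107 every eYFP- library was above the other 9 libraries, a pattern that 663 of the 20749 genes (3.2%) showed whether or not they were called. Of the 107 genes, 31 were in at least 1 of 20 gene lists for pathways and cell types, and 76 were in none.

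**Figure D1:**
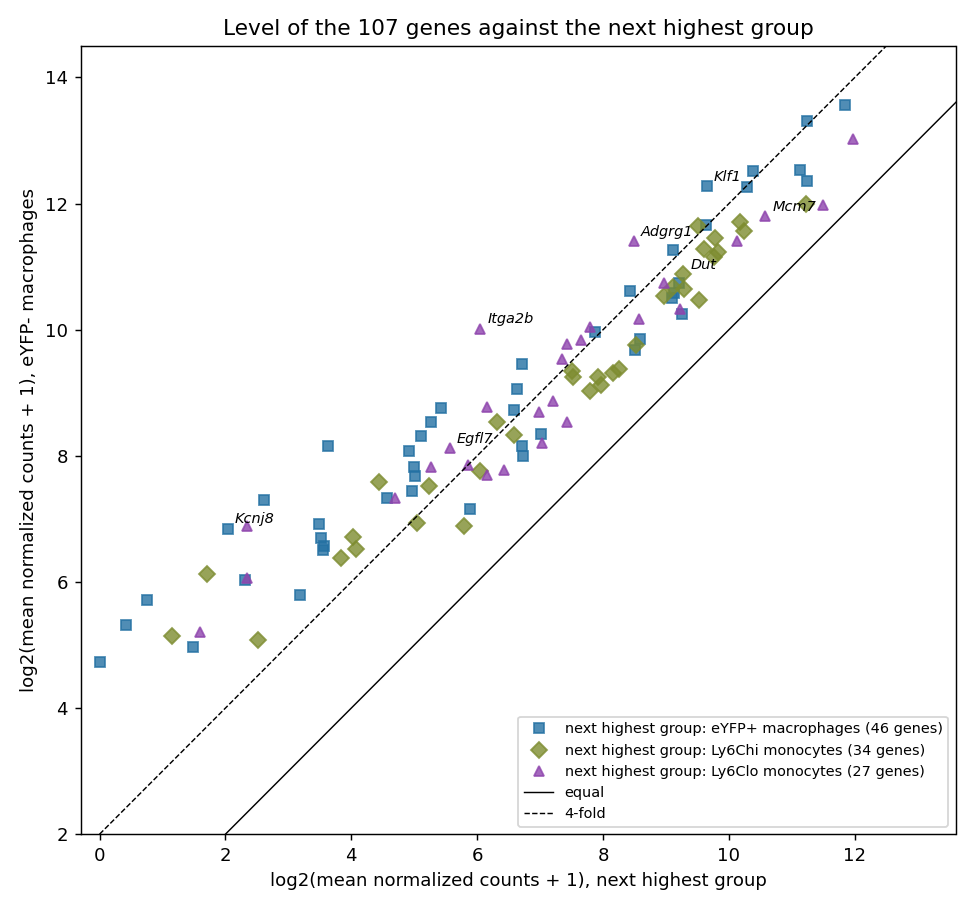
Mean level of the 107 genes in eYFP- macrophages (vertical axis) against the mean of the next highest group (horizontal axis), both as log2 of normalized counts plus 1, with 1 mark per gene coloured by that next group. Genes above the dashed line were more than 4-fold above the next group (55 genes), and no gene lies on or below the solid line of equality.

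The count depends on the test and on single libraries. The quasi-likelihood test of edgeR called 15 genes higher than all 3 groups (0.0782% of 19189 tested), and all 15 were among the 107. The comparison with eYFP+ macrophages set this limit, since 16 of the 106 of these genes tested by edgeR passed there, against 96 for Ly6Chi and 93 for Ly6Clo monocytes. Over all 19189 genes edgeR called 0.328% higher and 0.00521% lower than in eYFP+ macrophages, 13.5% higher and 9.76% lower than in Ly6Chi monocytes, and 13% higher and 8.91% lower than in Ly6Clo monocytes. Among those 15 were Dut, Mcm6, Nek2, Cdca3, Stmn1, Egfl7, Adgrg1, Phgdh, C1qtnf12, Tspan7, Kcnn4, Fam117a and the predicted genes Gm7901 and Gm11223. Leaving out Ly6Clo replicate 2 raised the DESeq2 count from 107 to 229, of which 104 were shared, and leaving out eYFP- replicate 1, eYFP- replicate 3 or eYFP+ replicate 3 lowered it to 37, 36 and 61. Against eYFP+ macrophages the 439 genes called in either direction became 865 without Ly6Clo replicate 2 and 227 without eYFP- replicate 3. Without both eYFP+ replicate 1 and Ly6Clo replicate 2 the genes higher than all 3 groups numbered 319.

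**Figure D2:**
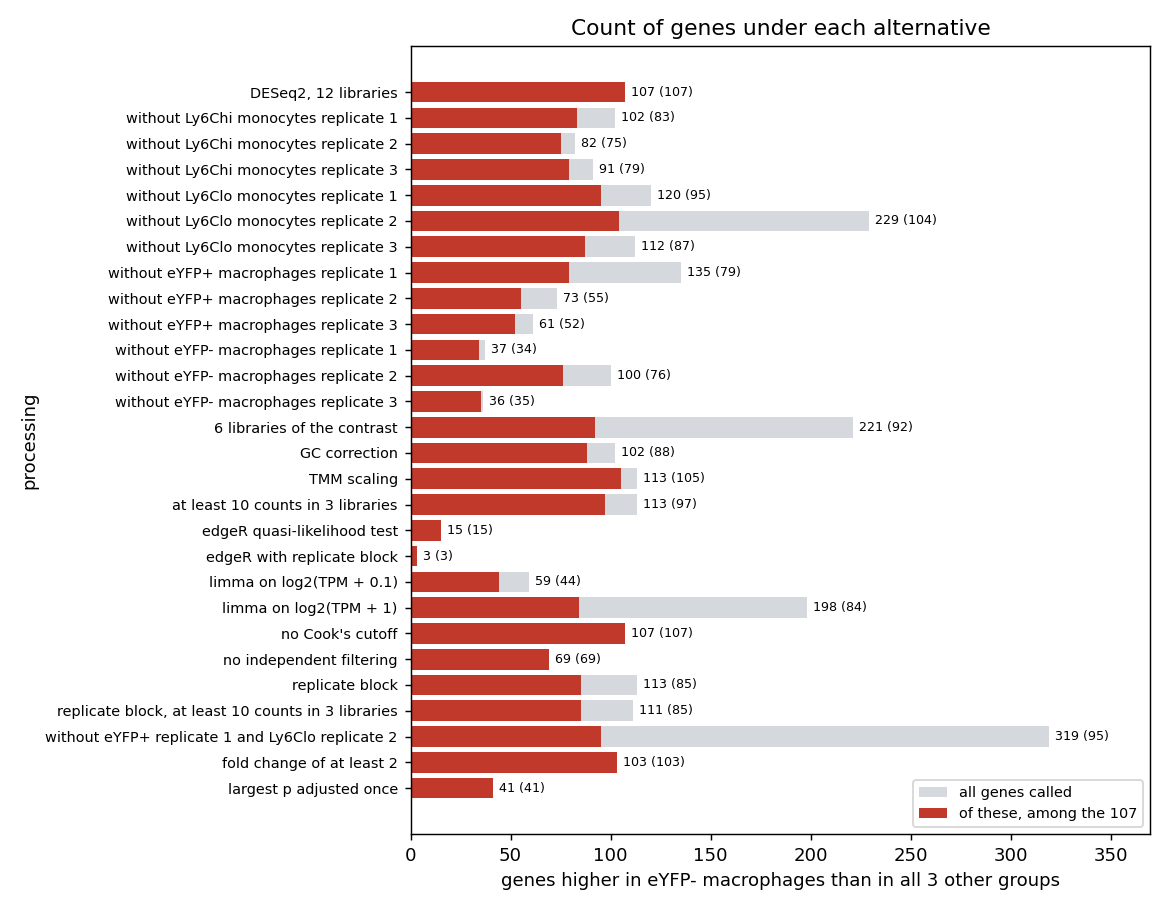
Number of genes called higher in eYFP- macrophages than in all 3 other groups (horizontal axis, genes) under each way of processing, with the whole bar for all genes called and the red part for those among the 107. The red part stays at 34 or more except under edgeR, where 15 genes were called, and edgeR with the replicate number as a block, where 3 were.

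Dut, which makes the enzyme that removes dUTP so that uracil stays out of new DNA, was called most firmly of all. It had 2380, 1425 and 1833 normalized counts in the eYFP- libraries. The eYFP+ libraries held 307, 383 and 362, the Ly6Chi libraries 665, 616 and 570 and the Ly6Clo libraries 285, 379 and 479. Every eYFP- library was thus above all 9 others. On the log2 scale Dut was 2.42 ± 0.30 (SE, n = 3 per group) above eYFP+ macrophages, 1.61 ± 0.30 above Ly6Chi and 2.30 ± 0.30 above Ly6Clo monocytes, and its largest adjusted p was 1.2e-06 with DESeq2. It is the gene among the 107 whose call held in all 25 alternatives in which single genes were followed, together with the predicted gene Gm7901.

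Genes of DNA replication formed the largest listed group among the 107. Of 34 such genes, 14 were higher in eYFP- than in eYFP+ macrophages (background 1.88%), 24 higher than in Ly6Chi (16.3%) and 24 higher than in Ly6Clo monocytes (15.4%), and none was lower in any of these DESeq2 comparisons. Their median log2 difference was 1.25, 1.44 and 1.43, beside the medians near 0 of all tested genes. Higher than all 3 groups were 10: Mcm2, Mcm5, Mcm6 and Mcm7, subunits of the helicase that opens DNA at origins, Orc1 of the complex that marks origins, Prim1 of the primase, Rrm1 of ribonucleotide reductase, Tyms, the thymidylate synthase, Dut, and Ccne1, the cyclin E1 that drives entry into S phase. Mcm7 had 4105, 3106 and 3516 normalized counts in eYFP- macrophages against 1102 to 1732 in the 9 other libraries, with log2 differences of 1.29 ± 0.27, 1.37 ± 0.27 and 1.22 ± 0.27 (SE). Ccne1 had 2518, 853 and 1343 counts in eYFP- libraries, 233, 321 and 478 in eYFP+ libraries and no more than 349 in any monocyte library. Replicate 1 was thus highest in both, and its lead was wider for Ccne1.

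Some other replication genes were not called between the macrophage groups, although 33 of the 34 differences to eYFP+ macrophages were positive. Of the 34, 25 had an unadjusted p under 0.05 there with DESeq2 and 25 with edgeR. Pcna, the sliding clamp of the polymerase, had 1624, 921 and 1299 normalized counts in eYFP- and 1210, 833 and 668 in eYFP+ libraries, which overlap (log2 difference 0.50 ± 0.35, DESeq2 adjusted p = 0.85). E2f1, a transcription factor of the S phase, had 1032, 722 and 818 counts in eYFP- libraries and 1294, 970 and 816 in eYFP+ libraries, and was not called in any comparison. Rrm2, the other subunit of ribonucleotide reductase, reached 16092 in eYFP- replicate 1 but 4336 and 6862 in replicates 2 and 3, beside 4936, 872 and 1426 in eYFP+ libraries. Its log2 difference of 1.92 ± 0.64 to eYFP+ macrophages did not pass (DESeq2 adjusted p = 0.10). The edgeR test called 2 of the 34 genes against eYFP+ macrophages, Dut and Mcm6. The 14 genes became 5 without eYFP- replicate 1, 8 without eYFP- replicate 3, 7 and 6 without eYFP+ replicate 2 or 3, 22 without Ly6Clo replicate 2, and 28 without both eYFP+ replicate 1 and Ly6Clo replicate 2. The 10 above all 3 groups became 2 without eYFP- replicate 1, 5 without eYFP- replicate 3, eYFP+ replicate 2 or eYFP+ replicate 3, 6 without Ly6Chi replicate 2 and 18 without Ly6Clo replicate 2.

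Of 34 genes of mitosis, 17 were higher than in eYFP+ macrophages (background 1.88%), 9 higher than in Ly6Chi (16.3%) and 25 higher than in Ly6Clo monocytes (15.4%), with median log2 differences of 1.54, 0.78 and 1.58. The only gene called in the opposite direction was Racgap1, a regulator of the dividing cell's final constriction, at 1415, 1241 and 1413 normalized counts in eYFP- macrophages against 3865, 4304 and 3332 in Ly6Chi monocytes. The 4 genes higher than all 3 groups were Birc5 (survivin), Ube2c, the ubiquitin-conjugating enzyme of the anaphase-promoting complex, Nek2, a kinase of the centrosome, and Hmmr, a spindle protein. Ube2c had 2781, 1640 and 3036 normalized counts in eYFP- libraries, 950, 520 and 474 in eYFP+ libraries, 827, 823 and 669 in Ly6Chi libraries and 540, 209 and 648 in Ly6Clo libraries. No other library reached the lowest eYFP- library. The log2 differences of Ube2c were 1.94 ± 0.46, 1.68 ± 0.46 and 2.42 ± 0.46 (SE), with a largest DESeq2 adjusted p of 0.0027.

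Mki67, the proliferation marker Ki-67, had 1775, 1867 and 1218 normalized counts in eYFP- libraries and 1108, 1366 and 730 in Ly6Chi libraries, and these groups overlapped. It was 1.48 ± 0.49 above eYFP+ macrophages on the log2 scale and did not pass the test there (DESeq2 adjusted p = 0.091). Aurkb, a kinase that corrects the attachment of chromosomes, was 1.56 ± 0.32 above eYFP+ macrophages with a DESeq2 adjusted p of 0.00023, while its 1736, 1192 and 1633 counts lay below the 1828, 1889 and 1839 of Ly6Chi monocytes. With edgeR, 3 of the 34 genes passed against eYFP+ macrophages: Nek2, Ccnb2 and Aurkb. All 34 differences there were positive, and 30 genes had an unadjusted p under 0.05 with DESeq2 and 30 with edgeR. The 17 genes became 9 and 5 without eYFP- replicate 1 or 3, 9 and 6 without eYFP+ replicate 2 or 3, 28 without Ly6Clo replicate 2 and 32 without both eYFP+ replicate 1 and Ly6Clo replicate 2. The 9 genes against Ly6Chi monocytes became 2 and 3 without eYFP- replicate 1 or 3, and 4 and 2 without Ly6Chi replicate 2 or 3, and the 25 against Ly6Clo monocytes became 13 and 15 without eYFP- replicate 1 or 3. The 4 above all 3 groups became 1 without eYFP- replicate 1, eYFP- replicate 3 or eYFP+ replicate 3, 2 without eYFP+ replicate 2 or Ly6Chi replicate 3, 7 without eYFP- replicate 2, 9 without Ly6Clo replicate 2 and 11 without eYFP+ replicate 1.

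Stmn1, Hmgb3 and Cdca3 were in none of the lists. Stmn1, a protein that takes microtubules apart, had 2609, 1845 and 2371 normalized counts in eYFP- libraries against 437 to 945 elsewhere. Hmgb3, a chromatin protein of progenitor cells, had 1598, 606 and 962 counts against 119 to 353 elsewhere, so that its lowest eYFP- library was still above every other. Chek1, the checkpoint kinase, Kif22, a mitotic kinesin, Fbxo5, an inhibitor of the anaphase-promoting complex, and Cdca3 were also among the 107. Cdca3 had 1661, 1064 and 1552 counts in eYFP- libraries, 342, 380 and 307 in eYFP+ libraries and 674 to 774 in Ly6Chi libraries.

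Erythroid genes were the other large group. Of 35 genes listed 34 were matched, and of these 33 were higher in eYFP- macrophages than in Ly6Chi monocytes (background 16.3%) and 33 higher than in Ly6Clo monocytes (15.4%), with median log2 differences of 5.18 and 4.83. Both macrophage groups held these transcripts, and 8 were higher in eYFP- than in eYFP+ macrophages (background 1.88%), where the median difference was 1.54 and every 1 of the 34 differences was positive. The 8 were Klf1, the transcription factor that turns on the red cell programme, Slc4a1 (the band 3 anion exchanger), Rhd of the Rh blood group, the carbonic anhydrases Car1 and Car2, Tmod1, which caps actin in the red cell skeleton, Abcb10, a mitochondrial transporter, and Ankle1, a nuclease. Each of these was also higher than both kinds of monocyte.

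The promoters of Klf1 and Ankle1 are shown because these erythroid genes were called above all 3 groups and their upstream windows held bases outside annotated exons. Both sequences are from RefSeq with build GRCm38.p6, another build than the authors' GRCm39, and run 5′ to 3′ on the gene's strand. Klf1 covers 196 bases at chr8:84901732-84901927 on the + strand, from 250 to 55 bases before the start site, with a CCAAT box in capitals. Ankle1 covers 248 bases at chr8:71405762-71406009 on the + strand, from 250 to 3 bases before the start site, with the cell cycle element TTTGAA in capitals.
Klf1: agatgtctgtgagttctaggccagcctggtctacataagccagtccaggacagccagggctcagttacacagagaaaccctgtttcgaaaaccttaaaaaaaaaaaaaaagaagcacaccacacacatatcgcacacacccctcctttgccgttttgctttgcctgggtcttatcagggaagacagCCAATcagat
Ankle1: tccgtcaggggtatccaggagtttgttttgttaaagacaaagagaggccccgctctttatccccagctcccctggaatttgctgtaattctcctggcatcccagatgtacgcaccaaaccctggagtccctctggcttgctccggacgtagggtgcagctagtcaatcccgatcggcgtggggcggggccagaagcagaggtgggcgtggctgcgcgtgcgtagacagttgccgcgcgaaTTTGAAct
The capitals mark a match of letters and not a measured site.

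Klf1 had 7979, 2437 and 4426 normalized counts in eYFP- libraries, 997, 519 and 884 in eYFP+ libraries, 124, 101 and 191 in Ly6Chi libraries and 67.1, 339 and 104 in Ly6Clo libraries. The eYFP- libraries did not overlap any other group, but replicate 1 held over 3 times the count of replicate 2. The mean was 6.18-fold that of eYFP+ macrophages, a log2 difference of 2.63 ± 0.61 (SE) with a DESeq2 adjusted p of 0.0019, and edgeR gave an adjusted p of 0.11. Ankle1 had 697, 516 and 689 counts in eYFP- libraries against 128 to 341 elsewhere, with log2 differences of 1.62 ± 0.35, 1.16 ± 0.35 and 1.50 ± 0.35. Unlike Klf1, Ankle1 was not higher in eYFP+ macrophages (mean 207) than in Ly6Chi (284) or Ly6Clo monocytes (225). Slc4a1 had its lowest eYFP- value in replicate 1, at 7669, beside 14087 and 14515 in replicates 2 and 3 and 3129, 3396 and 4448 in eYFP+ libraries. Replicate 1 was thus the highest of the 3 eYFP- libraries for Klf1 and the lowest for Slc4a1.

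The genes of haemoglobin were not called between the macrophage groups. Hba-a1, an alpha globin, had 270653, 117847 and 193191 normalized counts in eYFP- libraries and 122696, 50059 and 60412 in eYFP+ libraries, which overlap, and its log2 difference was 1.32 ± 0.48 (DESeq2 adjusted p = 0.17). Alas2, the enzyme that starts haem synthesis in red cells, had 8543, 6530 and 9497 against 3408, 2880 and 3136 counts, which do not overlap, with a difference of 1.38 ± 0.98 (DESeq2 adjusted p = 0.86). Its monocyte values were 97.6 to 220 in Ly6Chi libraries and 414, 0 and 297 in Ly6Clo libraries, the 0 being that of Ly6Clo replicate 2. Gata1, the partner factor of Klf1, had 2803, 977 and 1582 counts in eYFP- and 506, 196 and 383 in eYFP+ libraries and was also at 0 in that library (log2 difference 2.30 ± 0.85, DESeq2 adjusted p = 0.19).

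No erythroid gene passed against eYFP+ macrophages with edgeR, where 24 of 34 had an unadjusted p under 0.05, beside 26 with DESeq2. The 8 genes called by DESeq2 became 24 without Ly6Clo replicate 2 and 27 without both that library and eYFP+ replicate 1. They became 3 and 4 without eYFP- replicate 1 or 3, and 3 and 5 without eYFP+ replicate 2 or 3. The genes above all 3 groups, which are the same 8, became 23 without Ly6Clo replicate 2, 2 and 3 without eYFP- replicate 1 or 3, 2 and 5 without eYFP+ replicate 2 or 3, and 5 without Ly6Chi replicate 2. Summed over the list, erythroid transcripts made up 38060, 23886 and 33891 TPM in the eYFP- libraries, 15456, 9388 and 11216 TPM in the eYFP+ libraries and 471 to 1517 TPM in monocytes. Replicate 1 was highest and replicate 2 lowest in both macrophage groups. Whether red cell precursors or their fragments were sorted with the macrophages was not tested.

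Among the 107 but outside the erythroid list were Alad, an enzyme of haem synthesis, Tfr2, the liver and erythroid transferrin receptor, and Ache, the acetylcholinesterase that is carried on red cells. Alad had 8415, 2173 and 4147 normalized counts in eYFP- libraries and 1892, 852 and 1009 in eYFP+ libraries, with a log2 difference of 1.97 ± 0.55 (DESeq2 adjusted p = 0.022). Tfr2 was steadier, at 666, 660 and 771 counts against 187, 43.9 and 79.2 in eYFP+ libraries and at most 42.4 in monocytes.

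**Figure D3:**
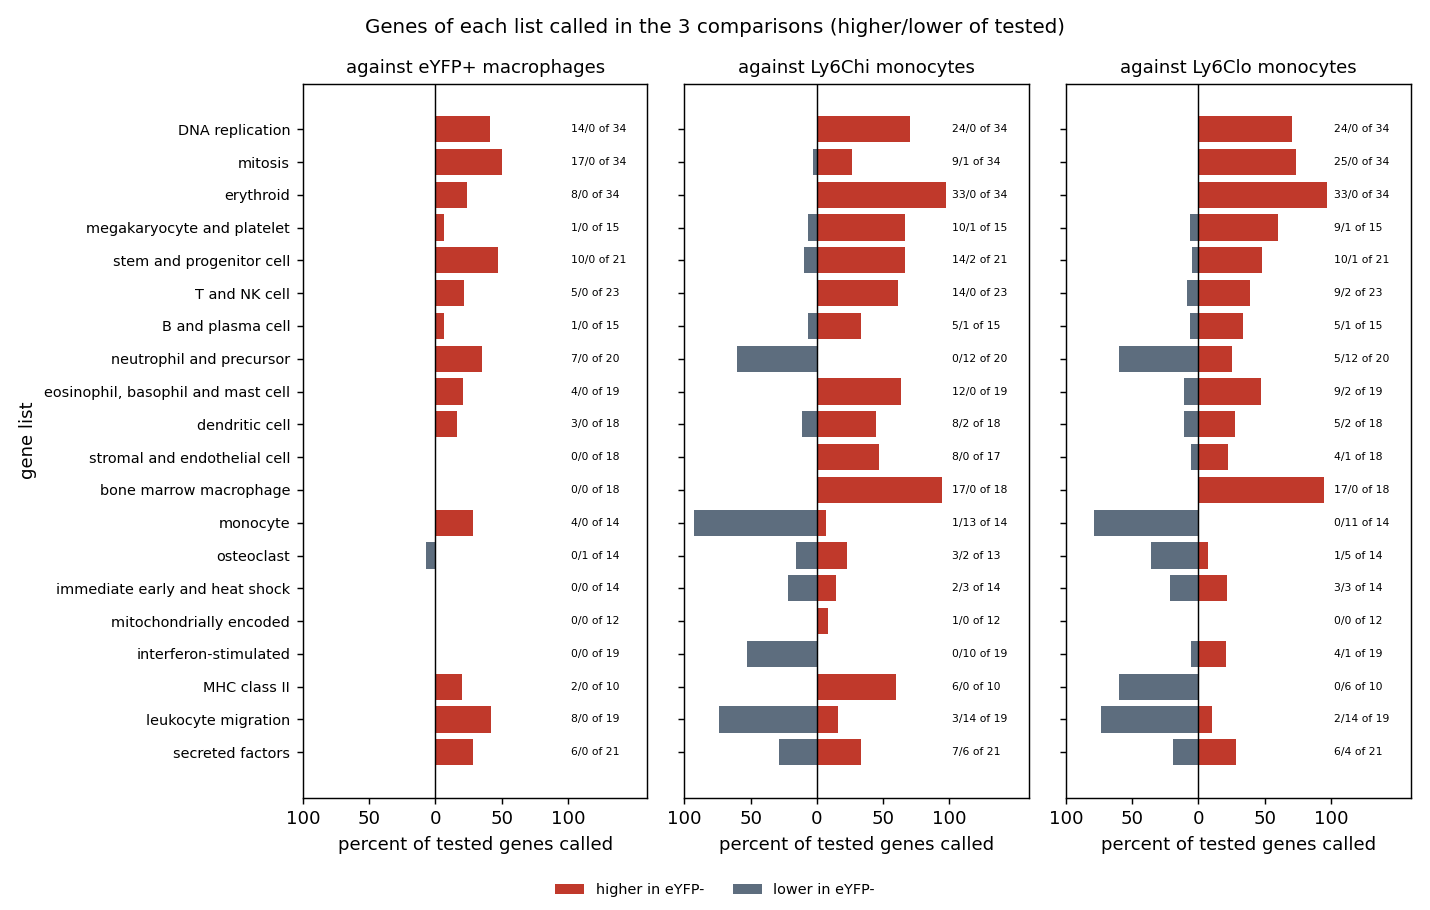
Share of tested genes of each of 20 lists called higher (red, to the right) or lower (grey, to the left) in eYFP- macrophages, in percent, for the 3 comparisons, with the counts printed beside the bars. Against eYFP+ macrophages almost all bars point to the right, with 14 of 34 replication, 17 of 34 mitosis and 8 of 34 erythroid genes higher, whereas neutrophil, monocyte and migration genes were mostly lower than in monocytes.

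Of 21 genes of stem and progenitor cells 10 were higher in eYFP- than in eYFP+ macrophages (background 1.88%) and 11 were not called. Against Ly6Chi monocytes 14 were higher (16.3%) and 2 lower (11.1%), and against Ly6Clo monocytes 10 were higher (15.4%) and 1 lower (10.8%). Adgrg1, an adhesion receptor (GPR56) of blood stem cells and cytotoxic lymphocytes, had 1707, 3116 and 3319 normalized counts in eYFP- libraries. It had 225, 278 and 217 in eYFP+ libraries, 5.30, 21.9 and 63.2 in Ly6Chi libraries and 298, 452 and 323 in Ly6Clo libraries. The groups did not overlap, and the eYFP- mean was 7.59-fold that of Ly6Clo monocytes, the next group, with log2 differences of 3.50 ± 0.59, 6.50 ± 0.61 and 2.93 ± 0.58 (SE) and a largest DESeq2 adjusted p of 7.8e-06.

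Egfl7, a protein that endothelial and progenitor cells secrete, was the steadiest of these genes. It had 264, 279 and 289 normalized counts in eYFP- libraries, 35, 16.2 and 13.3 in eYFP+ libraries, 24.4, 24.3 and 15.8 in Ly6Chi libraries and 22.9, 42.9 and 73.1 in Ly6Clo libraries. Its log2 differences were 3.70 ± 0.52, 3.69 ± 0.53 and 2.58 ± 0.51, and its calls held in 24 of 25 alternatives. Cd34, the classical surface marker of progenitor and endothelial cells, had 1175, 1970 and 1983 counts against 9.26, 152 and 54.0 in eYFP+ libraries, 140 to 186 in Ly6Chi libraries and 335 to 620 in Ly6Clo libraries. The fourth gene of the list above all 3 groups was Zfpm1 (FOG1), the cofactor of GATA1, at 126, 78.8 and 63.6 counts against at most 21.9.

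Kit, the stem cell factor receptor, was uneven among eYFP- libraries, with 183, 1738 and 1079 normalized counts. It passed against eYFP+ macrophages (71.0, 171 and 221; log2 difference 2.69 ± 0.69, DESeq2 adjusted p = 0.0086) and Ly6Chi monocytes but not against Ly6Clo monocytes. Flt3, a receptor of progenitors and dendritic cells, was higher in eYFP- macrophages (680, 917 and 1077) than in eYFP+ macrophages (1.03, 65.8 and 24.4), and monocytes had between 565 and 3253. Lyl1, a progenitor transcription factor, was lower in eYFP- macrophages than in both kinds of monocyte. Summed over the list, TPM were 218, 303 and 305 in eYFP- and 55.7 to 71.5 in eYFP+ libraries, against 501 to 554 in Ly6Chi and 166 to 573 in Ly6Clo libraries. Leaving out eYFP- replicate 3 lowered the 10 genes against eYFP+ macrophages to 6 and those above all 3 groups from 4 to 2, leaving out eYFP- replicate 2 lowered the 10 against Ly6Clo monocytes to 6, and edgeR called 3 against eYFP+ macrophages.

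Of 15 megakaryocyte and platelet genes tested, DESeq2 called 1 above all 3 groups (background 0.516%), Itga2b, and edgeR 0, where 4 had an unadjusted p under 0.05 against eYFP+ macrophages. The DESeq2 count became 3 without Ly6Clo replicate 2 or eYFP+ replicate 1, and 2 without eYFP- replicate 1, eYFP+ replicate 2, Ly6Chi replicate 1, or Ly6Clo replicate 1 or 3. Of the 15, 10 were higher and 1 lower than in Ly6Chi monocytes (16.3% and 11.1% of all genes), and 9 higher and 1 lower than in Ly6Clo monocytes (15.4% and 10.8%). It codes for the alpha chain of the platelet fibrinogen receptor and is made in early progenitors too. Itga2b had 808, 896 and 1393 normalized counts in eYFP- libraries, 34, 59.1 and 60.0 in eYFP+ libraries, 21.2, 1.21 and 14.6 in Ly6Chi libraries and 72.1, 0 and 123 in Ly6Clo libraries. The mean was 15.9-fold that of the next group, the Ly6Clo monocytes, and the log2 difference to eYFP+ macrophages was 4.34 ± 1.0 (DESeq2 adjusted p = 0.0018; edgeR adjusted p = 0.17). Pf4, the main platelet chemokine, was not called, at 1358, 1638 and 1671 counts in eYFP- and 2467, 2216 and 1264 in eYFP+ libraries.

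Lymphocyte genes among the 107 were Lck, the kinase of the T cell receptor, Lat, its adaptor, Gimap1, a GTPase of lymphocytes, and Klra8, a receptor of natural killer (NK) cells. Lck had 125, 261 and 306 normalized counts in eYFP- libraries, 31.9, 51.5 and 40.7 in eYFP+ libraries, at most 8.50 in Ly6Chi libraries and 39.9, 79.0 and 50.8 in Ly6Clo libraries. Gimap1 had 476, 564 and 551 counts, against 67.7 to 139 in eYFP+ libraries and at most 93.5 in monocytes. Cd3e, Cd3d and Cd3g, chains of the T cell receptor complex, had at most 36.5 counts in any eYFP- library and at most 41.4 in any eYFP+ library, and were not called. The part of lymphocytes in these differences was not tested.

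Of 23 T and NK genes, 5 were higher than in eYFP+ macrophages (edgeR 1; background 1.88% with DESeq2), where 20 differences were positive with a median of 1.48 on the log2 scale, 14 higher than in Ly6Chi monocytes (16.3%), and 9 higher (15.4%) and 2 lower (10.8%) than in Ly6Clo monocytes. Nkg7, a granule protein of cytotoxic cells, was called most clearly against eYFP+ macrophages, at 707, 858 and 1328 against 82.3, 100 and 99.2 counts (log2 difference 3.36 ± 0.35, DESeq2 adjusted p = 4.3e-18; edgeR adjusted p = 0.0020). Ly6Chi libraries held 915, 505 and 618 counts, which overlap the eYFP- libraries. The summed list was 279, 463 and 482 TPM in eYFP- and 276, 309 and 349 TPM in eYFP+ libraries, which overlap. The 5 genes became 3 without eYFP+ replicate 2 and 2 without eYFP- replicate 3, which also took the 9 against Ly6Clo monocytes to 5 and left none of the 2 genes above all 3 groups, and any other single library left 1 to 3 of those.

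Of 19 eosinophil, basophil and mast cell genes tested, 4 were higher in eYFP- than in eYFP+ macrophages with DESeq2 (background 1.88%) and 0 with edgeR, where 10 and 11 had an unadjusted p under 0.05. Against Ly6Chi monocytes 12 were higher (16.3%), and against Ly6Clo monocytes 9 were higher (15.4%) and 2 lower (10.8%). The 12 became 7 without any 1 eYFP- library, and the 9 became 5 without eYFP- replicate 2 or 3. The summed list was 1550, 1871 and 3124 TPM in eYFP- libraries, which overlaps the 1541 to 1793 of eYFP+ and the 915 to 2507 of Ly6Clo libraries and lies above the 155 to 292 of Ly6Chi libraries. Cd200r3, a receptor of basophils and mast cells, and Slc18a2, the vesicular monoamine transporter, were above all 3 groups. Slc18a2 had 210, 727 and 469 normalized counts in eYFP- libraries against 20.6 to 171 in the 9 others. Mcpt8, a protease that marks basophils, had 1530, 2237 and 3258 counts in eYFP- libraries and 0, 2.86 and 2.22 in eYFP+ libraries (log2 difference 10.42 ± 1.86, DESeq2 adjusted p = 9.2e-06; edgeR adjusted p = 0.068). It was called against Ly6Clo monocytes too, but Ly6Chi replicate 3 held 646 counts where replicates 1 and 2 held 6.36 and 1.21, and the difference to Ly6Chi monocytes did not pass (DESeq2 adjusted p = 0.14). Prss34, another basophil protease, had 4805, 5354 and 10693 counts in eYFP- libraries and 2733 in that same Ly6Chi library, where every other library had at most 59.1. The mast cell tryptases Tpsb2 and Tpsab1 were at 0 in all 3 eYFP- libraries. The 4 genes against eYFP+ macrophages became 2, 1 and 2 without eYFP- replicate 1, 2 or 3 and 7 without Ly6Clo replicate 3, and the 2 above all 3 groups became 5 without Ly6Chi replicate 3, 4 without Ly6Clo replicate 3 and 1 or 0 without Ly6Clo replicate 1 or any 1 eYFP- replicate.

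**Figure D4:**
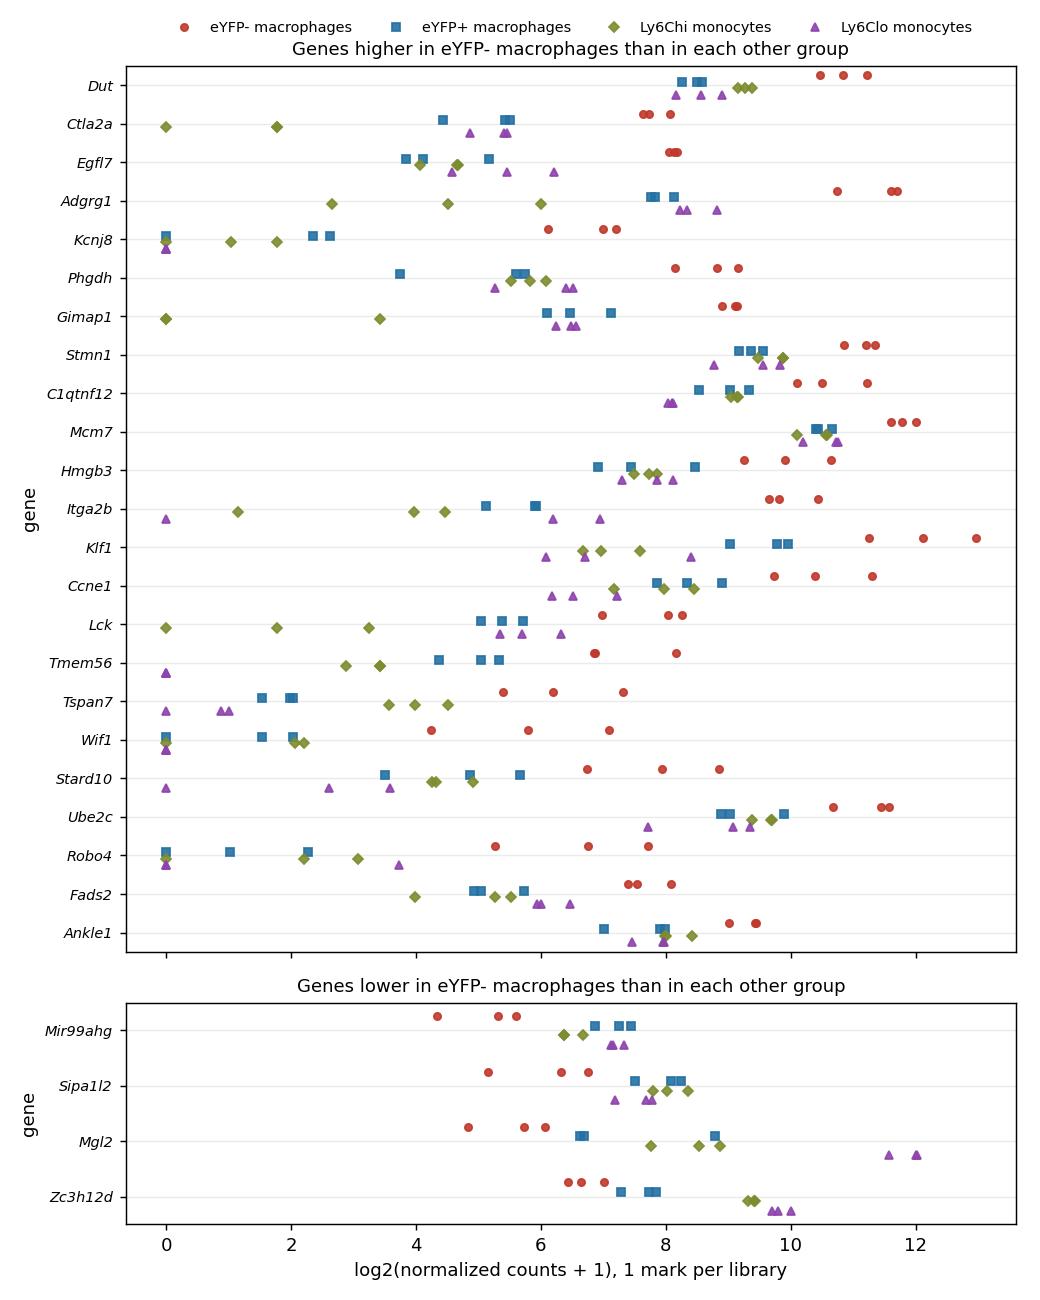
Level of 23 of the genes with the smallest adjusted p above all 3 groups (upper panel) and of 4 genes below all 3 groups (lower panel), as log2 of normalized counts plus 1, with 1 mark per library and a colour for each group. In the upper panel the 3 eYFP- marks stand to the right of all others in every row, and in the lower panel they stand to the left. The genes were chosen for having no overlap with the other 9 libraries, so this follows from the choice.

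Genes outside the lists included Kcnj8, Kcnn4, Phgdh, Fads2 and Slc43a1. Kcnj8, a subunit of ATP-sensitive potassium channels, had 147, 68.4 and 127 normalized counts in eYFP- libraries, at most 5.18 in eYFP+ libraries, at most 2.43 in Ly6Chi libraries and 0 in all Ly6Clo libraries. The eYFP- mean was 36.8-fold that of eYFP+ macrophages, the next group. Kcnn4, a calcium-activated potassium channel of red cells and leukocytes, had 3194, 2013 and 2957 counts against 683, 460 and 625 in eYFP+ libraries and 1515, 583 and 1258 in Ly6Clo libraries. Phgdh, which starts serine synthesis from glucose, had 281, 453 and 571 counts against at most 90.4 in the other 9, with log2 differences of 3.53 ± 0.54, 2.96 ± 0.54 and 2.62 ± 0.54. Fads2, a desaturase of fatty acids, had 167, 185 and 269 counts against at most 87.4. Slc43a1, an amino acid carrier, had 2806, 1825 and 2755 counts against 401 to 666 in eYFP+ libraries and at most 93.8 in monocytes.

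C1qtnf12, Wif1, Robo4, Tspan7 and Ctla2a were in no list either. C1qtnf12, a secreted protein known as adipolin, had 2389, 1095 and 1445 normalized counts in eYFP- libraries and 262 to 643 elsewhere, with log2 differences of 1.69 ± 0.35, 1.57 ± 0.35 and 2.60 ± 0.35. Wif1, a secreted inhibitor of Wnt ligands, had 54.8, 17.9 and 135 counts against at most 3.64. Robo4, a guidance receptor of endothelial and stem cells, had 107, 209 and 37.7 counts against at most 12.2. Tspan7, a tetraspanin, had 159, 72.1 and 41.0 counts against at most 21.9, and Ctla2a, a cathepsin inhibitor, had 198, 268 and 211 counts against at most 44.3. Esam and Adgrl4, surface proteins of endothelial cells, were also among the 107, while 0 of 18 stromal and endothelial genes were called against eYFP+ macrophages by DESeq2 or by edgeR, where 7 and 3 had an unadjusted p under 0.05 and the median log2 difference was 2.1. D630039A03Rik, a long RNA, had a count in the eYFP- libraries alone, and Cyp8b1, a sterol hydroxylase, had 23.7, 52.8 and 40.2 counts there with at most 1.03 elsewhere.

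Of the 107 genes 10 had predicted-gene names and 3 had no symbol. Gm7901, at 633, 901 and 1078 normalized counts against at most 235, and Gm11223, at 3499, 2411 and 3203 against at most 1385, are examples, and Tyms-ps is a pseudogene by name. Counts of such genes are uncertain where a close copy exists elsewhere in the genome, since the authors kept only pairs with an unambiguous assignment. Gm11223 followed Stmn1 (2609, 1845 and 2371 counts in eYFP- libraries), and Gm7901 followed Phgdh (281, 453 and 571). Both pairs are among the 107 genes and among the 15 called by edgeR, which may thus count 1 signal more than once. This was not tested.

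The eYFP- libraries did not contribute alike. Replicate 1 was highest of the 3 for 64 of the 107 genes, replicate 3 for 32 and replicate 2 for 11, and replicate 2 was lowest for 70. Summed over the 107 genes the level was 6063, 3568 and 4759 TPM in the eYFP- libraries, 1641, 1040 and 1201 in the eYFP+ libraries, 711 to 870 in Ly6Chi and 681 to 857 in Ly6Clo libraries. Max, a partner of Myc, was uneven, at 6392, 562 and 2613 normalized counts in eYFP- libraries, and its replicate 2 lay below the 830 of eYFP+ replicate 2 and the 853 of Ly6Chi replicate 2. For replication genes the sum was 1878, 1179 and 1361 TPM in eYFP- libraries against 477 to 740 in the other 9, and for mitosis genes 985, 693 and 909 against 197 to 530. Both sums were highest in replicate 1, as was the erythroid sum, while progenitor, T and NK sums were lowest there.

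**Figure D5:**
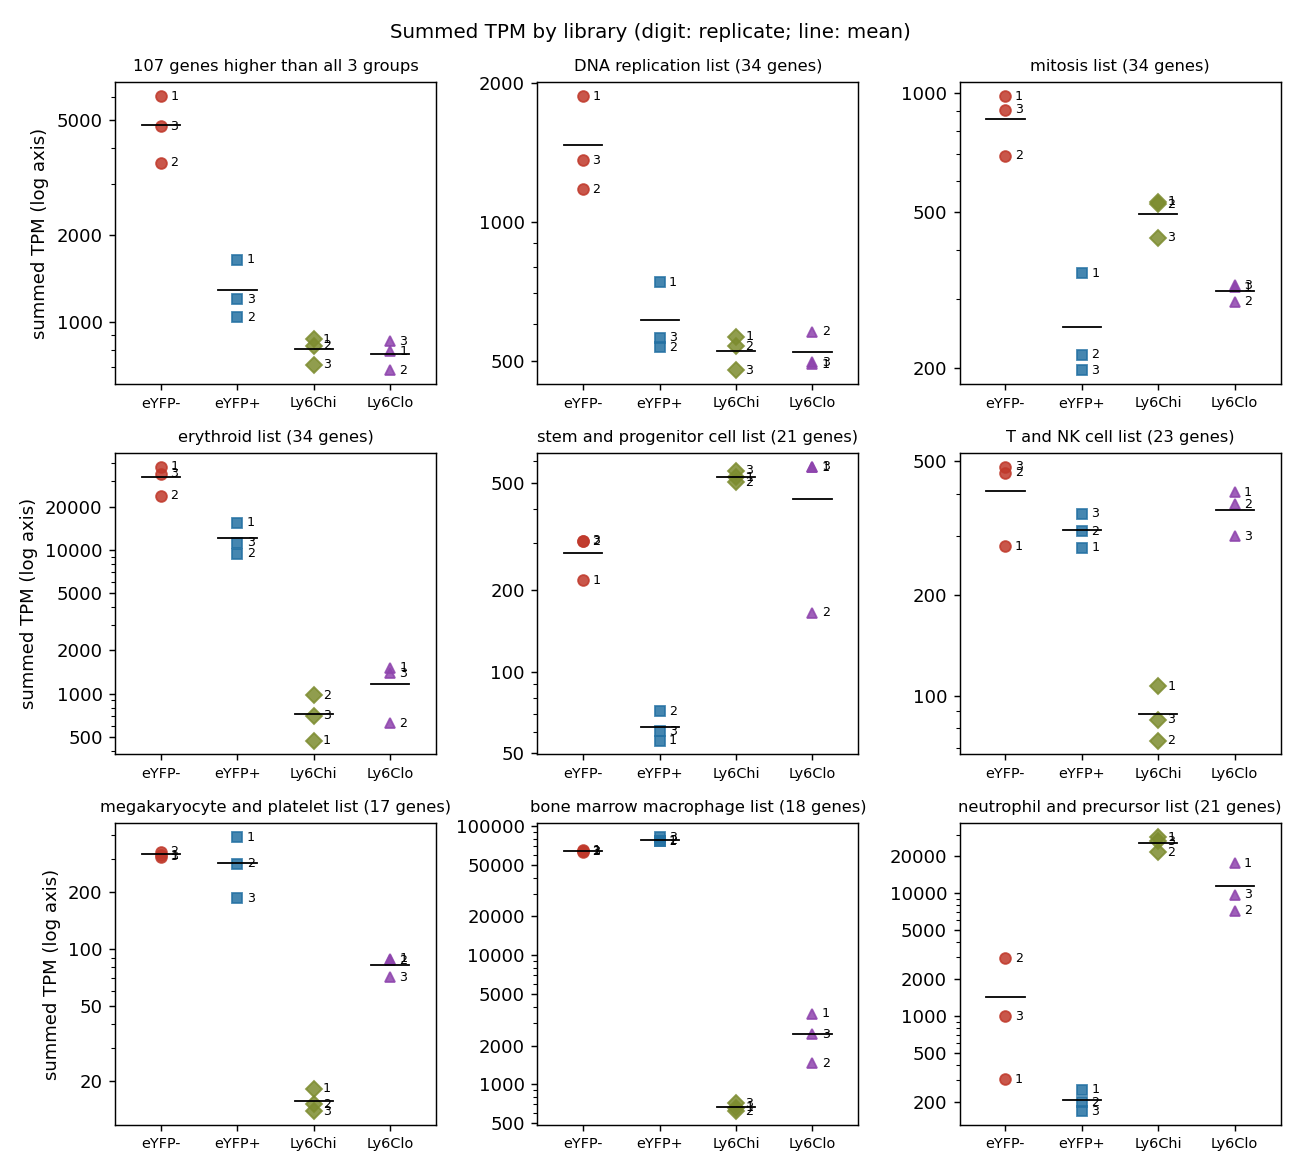
Summed TPM (vertical log axis) of the 107 genes and of 8 gene lists in each library, with 1 mark per library, the digit giving the replicate and the line the group mean. The eYFP- libraries are above all others for the 107 genes, replication, mitosis and erythroid lists, while eYFP- replicate 2 stands at 2959 TPM for neutrophil genes, above the other eYFP- libraries and below all monocytes.

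Neutrophil genes were the clearest mark of a single library. Their sum was 305, 2959 and 990 TPM in the eYFP- libraries, 168 to 251 TPM in eYFP+ libraries and 7190 to 28635 TPM in monocytes. Camp, Ngp and Lcn2, granule genes of maturing neutrophils, had 3455, 6609 and 1184 normalized counts in eYFP- replicate 2, where replicates 1 and 3 had 136 to 258 of the first pair and 16.4 and 57.7 of Lcn2. Mpo, myeloperoxidase, was high in all 3, at 7443, 20146 and 27039 against 226 to 1809 in eYFP+ libraries, and overlapped the 15214 to 24361 of Ly6Chi libraries. Of 20 neutrophil genes tested 7 were higher than in eYFP+ macrophages (edgeR 1), and 3 without eYFP- replicate 2. Against each kind of monocyte 12 were lower (background 11.1% for Ly6Chi and 10.8% for Ly6Clo), and 5 were higher than in Ly6Clo monocytes (15.4%), or 3 without eYFP- replicate 3. Those lower than in Ly6Clo monocytes numbered 8 with edgeR, and 6 without eYFP+ replicate 1 and Ly6Clo replicate 2. Against a background of 1.88% of all genes, DESeq2 called 1 of 15 B cell, 3 of 18 dendritic cell and 4 of 14 monocyte genes higher than in eYFP+ macrophages. With edgeR 0 B cell genes, 0 dendritic cell genes and 1 monocyte gene passed, where 1, 7 and 6 had an unadjusted p under 0.05. The B cell count became 0 without any 1 eYFP- library, any 1 Ly6Chi library, or eYFP+ replicate 2 or 3. The part of any such cells in the 107 genes was not tested.

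Monocyte transcripts were present at a low level. Summed over 16 monocyte genes, eYFP- libraries had 861 to 952 TPM and eYFP+ libraries 732 to 1207 TPM, against 14330 to 15915 in Ly6Chi and 3877 to 4127 in Ly6Clo libraries. Ccr2, the chemokine receptor by which monocytes leave the marrow, had 331, 882 and 844 normalized counts in eYFP- libraries, 256, 120 and 213 in eYFP+ libraries and at least 15711 in every monocyte library. It was 1.80 ± 0.43 above eYFP+ macrophages on the log2 scale (DESeq2 adjusted p = 0.0027; edgeR adjusted p = 0.081). The migration and secreted lists hold genes that the study chose on these samples, so their direction is no independent evidence: 8 of 19 migration genes were higher than in eYFP+ macrophages (background 1.88%; 3 with edgeR, and 5 with DESeq2 without eYFP- replicate 3) while 14 were lower than in each kind of monocyte (11.1% and 10.8% of all genes), and of 21 secreted factors 6 were higher than in eYFP+ macrophages (1.88%; 2 with edgeR).

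Fcna (ficolin A) and Cd5l, secreted proteins of tissue macrophages, were among the 3 genes named by the smallest adjusted p against each kind of monocyte, with no overlap between the groups. Cd5l had 81081, 76138 and 73058 normalized counts in eYFP- libraries. S100a6, a calcium-binding protein, had the smallest adjusted p among the genes named as lower than in Ly6Chi monocytes, at 59.3, 178 and 143 counts against 26443, 27753 and 25044, a log2 difference of -7.70 ± 0.37. Of 19 interferon-stimulated genes 10 were lower than in Ly6Chi monocytes (background 11.1%). Against Ly6Clo monocytes 4 of the 19 were higher (15.4%) and 1 lower (10.8%). Of 10 MHC class II genes 6 were higher than in Ly6Chi (16.3%) and 6 lower than in Ly6Clo monocytes (10.8%).

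In 10 of the 12 genes below all 3 groups every eYFP- library was below the other 9 libraries, as it was in 166 of the 20749 genes (0.8%) whether or not they were called. Among the 12, Mgl2, a lectin of dermal and inflammatory macrophages, had 27.4, 66.2 and 51.9 normalized counts in eYFP- libraries against 97.8, 443 and 102 in eYFP+ libraries and 3047 to 4166 in Ly6Clo libraries. Sipa1l2, Mir99ahg and Zc3h12d, a ribonuclease related to regnase-1, were lower as well, and Zc3h12d was closest to the eYFP+ level, at 98.6, 129 and 85.4 against 212, 229 and 154 counts. A further 7 of the 12 had at most 114 counts in any macrophage library. With edgeR 0 genes were below all 3 groups, where 89 had an unadjusted p under 0.05 throughout, and the DESeq2 count of 12 became 2, 83 and 4 without eYFP- replicate 1, 2 or 3, 7 without eYFP+ replicate 2 or 3 and 34 without Ly6Clo replicate 2.

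Promoters were matched for 85 of the 107 genes among 27025 RefSeq promoters, as the 250 bases before the start site, and searched on both strands for letters that no other searched motif contains. CCAAT, the NF-Y box, was in 38 of 85 (44.7%), against 34.5% of all promoters. TTTGAA, the cell cycle element, was in 10 (11.8%), against 16.3%, and AGATAA, the motif of GATA factors, in 8 (9.41%), against 10.3%. The E2F sites TTTCCCGC and TTTGGCGC were in 2 each (2.35%), against 0.929% and 0.437%, CCACACCC, a Klf site, in 5 (5.88%), against 3.19%, and TGTGGTT, a Runx site, in 4 (4.71%), against 4.46%. These shares describe letters in windows, with no test, and say nothing of the binding of a factor.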

How the data were processed

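RNA was measured in 12 bulk libraries of sorted mouse bone marrow cells, grouped by their titles into 4 groups of 3. Cells were sorted into lysis reagent, and cDNA was made by template switching and sequenced as read pairs without molecular identifiers, so reads are not independent molecules. Per the study's methods and the labels, the authors called bases with bcl2fastq 2.20.0.422, trimmed with Trimmomatic and Cutadapt, corrected with Rcorrector, removed ribosomal reads with SortMeRNA, aligned to GRCm39 with segemehl and deposited featureCounts counts of unambiguous pairs per Ensembl gene. Whether strand was used was not given in the sources used here. The authors also deposited TPM values, used here for levels between genes and in an alternative, and variance-stabilised values, which were not used.

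The deposited counts of all 12 libraries were fitted together with DESeq2 1.42.0 (R 4.3.3, Wald test, median-of-ratios scaling, group as the only term, Benjamini-Hochberg adjustment over all genes tested, threshold 0.05). Log2 differences are unshrunken. Normalized counts are counts divided by these size factors. The 14020 genes with no count in any library were not tested, and Itgam and Ly6c2 had no adjusted p. Symbols came from a GENCODE table that matched 91.4% of 56953 identifiers. Of the erythroid list Ahsp was not matched. Scripts were tested on simulated data.

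The comparison and the gene lists were chosen with earlier results of these data known. Named by rule were, among genes above (below) all 3 groups, those with a symbol other than a predicted name, a mean of at least 50 normalized counts (in the other 9 libraries for lower genes) and no overlap with the other 9 libraries, ranked by the largest of the 3 adjusted p, up to 24 higher and 8 lower, of which 5 were found. Sorting markers, list members above all 3 groups, and up to 3 genes in each direction per monocyte comparison were named too. Other genes, such as those called by edgeR, Pcna, E2f1, Max, Prss34, Cyp8b1 and D630039A03Rik, were chosen after their values were seen. Some genes that the rule names are not reported here. Alternatives were edgeR 4.0.16, limma 3.58.1 on log2(TPM + 0.1) and log2(TPM + 1), TMM scaling, a GC correction, count filters, a fold of at least 2, fits of 6 libraries, the replicate number as a block, and leaving out each library.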

Additional observations from a re-analysis of the deposited data

How the results depend on the processing

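The numbers above (439 genes against eYFP+ macrophages, 5681 against Ly6Chi and 5665 against Ly6Clo monocytes, 107 above and 12 below all 3 groups) each moved by over 1.5 times under some setting of this section. For Ly6Clo monocytes that setting was edgeR with the replicate number as a block, given further below. The cause was not tested. Fits of the 6 libraries of each comparison gave 686 genes against eYFP+ macrophages, 221 above and 4 below all 3 groups. The edgeR test gave 64, 15 and 0. limma on log2(TPM + 0.1) gave 175, 59 and 2, and on log2(TPM + 1) it gave 198 above and 2 below. Without independent filtering 69 were above and 6 below, and with the largest of the 3 p-values adjusted once 41 and 3. Without eYFP+ replicate 1 and Ly6Clo replicate 2 there were 989 against eYFP+ macrophages, 8601 against Ly6Chi monocytes, 319 above and 35 below. Leaving out 1 library at a time gave 227 to 865 against eYFP+ macrophages, 3985 to 7479 against Ly6Chi and 4298 to 6150 against Ly6Clo monocytes, 36 to 229 above and 2 to 83 below. Other settings stayed within 1.5 times (TMM 113, GC correction 102, count minimum 113, no Cook's distance filter 107 and a fold of at least 2 103 genes above all 3 groups).

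The labels do not say what a shared replicate number stands for, so the numbers were not taken to pair the libraries. Deviations of same-numbered libraries from the group means correlated at 0.0266 to 0.134 in the 9 pairs, with 2 of the 9 above 0.1, and the eYFP- libraries correlated best with their own number in 1 of 3 for eYFP+ macrophages, 3 of 3 for Ly6Chi and 2 of 3 for Ly6Clo monocytes. A DESeq2 fit with a block for the number gave 1142 genes against eYFP+ macrophages, of which 59.9% were higher in place of 92.5%, 113 above and 133 below all 3 groups, and with a count minimum added 444, 111 and 10. edgeR with the block, a setting chosen after the data were seen, called 24, 3679 and 3417 genes in the 3 comparisons, 3 above and 0 below all 3 groups.

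Of 2555 values of named genes under these settings, 2445 kept their direction and their side of the threshold, 110 no longer passed and 0 reversed. Of those 110, 91 were against eYFP+ macrophages. Of 1560 list counts 201 moved by over 1.5 times. The limma fits on TPM placed the median of all genes 0.15 to 0.21 above 0 against monocytes.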

Other observations

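With DESeq2 2 of 10 MHC class II genes were higher in eYFP- than in eYFP+ macrophages (1.88% of all genes were), with edgeR 0, where 2 had an unadjusted p under 0.05, and both were accessory genes that act on peptide loading. H2-Oa had 84.9, 213 and 281 normalized counts in eYFP- libraries and 17.5, 24.8 and 45.9 in eYFP+ libraries, a log2 difference of 2.71 ± 0.55 (SE, n = 3 per group; DESeq2 adjusted p = 0.00020). H2-Ob had 267, 565 and 412 against 110, 31.5 and 5.18 counts, a difference of 3.09 ± 0.72 (DESeq2 adjusted p = 0.0024). For both genes the 3 eYFP- libraries were above the 3 eYFP+ libraries. Xcr1, a chemokine receptor of cross-presenting dendritic cells, had 224, 401 and 603 counts in eYFP- libraries against 12.4, 24.8 and 6.66 in eYFP+ libraries, a difference of 4.81 ± 1.09 (DESeq2 adjusted p = 0.0015; edgeR adjusted p = 0.20).

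Of 14 osteoclast genes 1 was lower in eYFP- than in eYFP+ macrophages, as were 0.153% of all genes. Ctsk, the protease by which osteoclasts break down bone collagen, had 11, 20.1 and 11.7 normalized counts in eYFP- libraries and 65.9, 32.4 and 82.2 in eYFP+ libraries (log2 difference -2.07 ± 0.51, DESeq2 adjusted p = 0.0052; edgeR adjusted p = 0.11). In 3 further lists 0 genes were called between the macrophage groups by DESeq2 or by edgeR. They held 14 immediate early and heat shock genes (0 with an unadjusted p under 0.05 by DESeq2 and 1 by edgeR), 12 mitochondrially encoded genes (0 and 0) and 19 interferon-stimulated genes (1 and 1).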
